A study of Danio rerio with 16 samples.

Results

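Mitochondrial RNA of the minus strand was followed through the places where its poly(A) tails begin. The data were 3P-Seq libraries of wild-type zebrafish (Danio rerio), 1 from whole embryos of 24 hpf (hours post fertilization), 1 from whole embryos of 72 hpf and 1 from whole adults, labelled as mixed gender. 3P-Seq is a sequencing method that reads the last bases of polyadenylated RNA before the tail. The ends were taken from the interval lists of the 3 libraries, as intervals on chrM with strand minus, with the lower coordinate as the 3′ end. Ends of the pooled libraries within 10 nt of a stronger end were merged with it, and those reaching 4 tags in the pool were kept. This gave 297 ends, of 90940 in the whole genome and beside 818 on the plus strand of chrM. All positions are 1-based positions on chrM of the danRer7 (Zv9) build, and an end goes by the position where most of its tags stop. The sources used here do not say how many animals made each library.

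The mitochondrial genome of vertebrates is a small circle transcribed on both strands into long precursors. Transfer RNA genes stand between most of its other genes, and cutting at the transfer RNAs frees the messenger and ribosomal RNAs, many of which then receive a short poly(A) tail. One strand carries most genes; the other encodes the respiratory chain subunit ND6 and a minority of the transfer RNAs, and the rest of its transcript is antisense to genes of the opposite strand. The RefSeq gene table of the GRCz12tu assembly lists 37 mitochondrial genes, of which 13 code for proteins, 22 for transfer RNAs and 2 for ribosomal RNAs. In its order, ND1, trnI, trnQ, trnM and ND2 are neighbours, followed by trnW, trnA, trnN, trnC, trnY and COX1. That table belongs to another build than the tags, so no end below was assigned to a gene, and no sequence of the danRer7 mitochondrial genome was used here. The strong plus-strand ends in the same libraries serve as landmarks instead.

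The minus strand held a small share of mitochondrial tags in every library: 24 hpf had 2.13% (exact Clopper-Pearson 95% interval 2.07% to 2.19%), 72 hpf had 2.0% (1.96% to 2.05%) and the adult had 4.80% (4.70% to 4.90%). The tags behind these shares numbered 4758, 8187 and 9214, in the order 24 hpf, 72 hpf and adult, of library totals of 7423152, 9813481 and 7470435. Scaled to 1000000 tags per library (CPM), the strand came to 641, 834 and 1233 CPM in the same order. The plus strand followed another course, with 29405, 40793 and 24472 CPM. In the adult against 72 hpf the minus strand was thus 1.48-fold (interval 1.44 to 1.52) and the plus strand 0.600-fold (0.597 to 0.603). Each stage has 1 library, so the differences have no replicate check and no test over samples. Intervals cover counting error only, copies made by PCR are not independent molecules, and every comparison is between these libraries.

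The adult level rested on a single end. Without the end at 4923, the sums over the other 296 members were 623 CPM (24 hpf), 811 CPM (72 hpf) and 666 CPM (adult), so the adult was 1.07-fold the 24 hpf level (interval 1.03 to 1.11) and 1.22-fold below the 72 hpf level (1.18 to 1.26). Counted as distinct intervals, the strand's share of each library was 0.328% (24 hpf), 0.282% (72 hpf) and 0.306% (adult). Its share of the distinct intervals on chrM was 17.5%, 17.2% and 18.4% in stage order. Tags per interval also differed between the libraries: an interval standing alone within 10 nt had on average 3.74, 3.52 and 1.23 tags in stage order, and 19.9%, 16.7% and 64.1% of the strand's intervals had 1 tag. The part of these differences in the results was not tested. In whole animals, fewer cells of a type and less RNA per cell cannot be told apart.

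**Figure D1:**
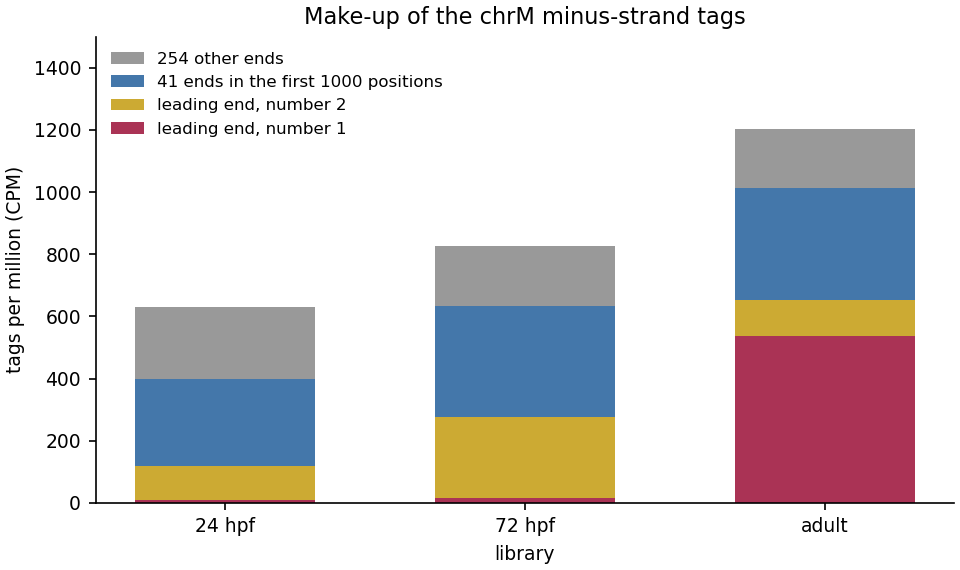
Stacked bars of the minus-strand chrM level (CPM) in each library, split into the end at 4923 (number 1), the end at 6425 (number 2), the 41 ends in positions 1 to 1000 and the 254 other ends. The end at 4923 came to 7.81, 16.7 and 537 CPM in stage order, while the ends of the first 1000 positions came to 279, 359 and 360 CPM.

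The make-up of the strand differed between the libraries, as the stacked bars show. At 24 hpf, 6 ends held 50% of the tags and 96 ends held 90%; at 72 hpf these numbers were 4 and 82, and in the adult 2 and 40. The 41 ends in positions 1 to 1000, a range set after the data were seen, took 43.5% of the strand's tags (42.1% to 45.0%) in the 24 hpf library, 43.0% (41.9% to 44.1%) in the 72 hpf library and 29.2% (28.3% to 30.1%) in the adult library. All 297 members were spread over the molecule. With a minimum of 4 tags, 154, 183 and 124 of them were detected in stage order, and 57 in every library. After the libraries were thinned to the size of the smallest, 151, 155 and 121 ends were detected, so 72 hpf was then close to 24 hpf. Most members were weak, with a median of 12 tags in the pool and 201 members under 20. Among the 31 members with 4 tags, the ends at 1175, 1436 and 2564 stood just inside the threshold, and among the 46 candidates with 3 tags, those at 421, 590 and 1642 stood just outside.

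The end at 4923 was the strongest of the strand by mean level and almost wholly an adult end. The 24 hpf library had 58 tags there (7.81 CPM), the 72 hpf library 164 (16.7 CPM) and the adult library 4009 (537 CPM). The adult library stood far above both embryo libraries, which lay within a factor of 2.14 of each other (interval 1.58 to 2.94). The adult level was 32.1-fold that of 72 hpf (interval 27.5 to 37.8) and 68.7-fold that of 24 hpf (53.0 to 90.6). Of the strand's tags it took 1.22% (0.927% to 1.57%), 2.0% (1.71% to 2.33%) and 43.5% (42.5% to 44.5%) in stage order. Within the strand the adult share was still 35.7-fold that at 24 hpf (27.6 to 47.1) and 21.7-fold that at 72 hpf (18.6 to 25.5). Counted as distinct intervals, the adult was 3.86-fold 72 hpf (1.33 to 15.3) and 2.84-fold 24 hpf (0.982 to 11.2). Neither of these ratios was called.

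The end at 6425 led the strand at 72 hpf, where it also had its highest level. Its tags numbered 822 (24 hpf), 2534 (72 hpf) and 861 (adult), or 111, 258 and 115 CPM. The outer stages were near each other, with an adult to 24 hpf ratio of 1.04 (interval 0.945 to 1.15). At 72 hpf it was 2.33-fold the 24 hpf level (2.16 to 2.53), which is under the 4-fold asked for a call. The adult level was 2.24-fold below that of 72 hpf (2.07 to 2.42), also no call. Its share of the strand was 17.3%, 31.0% and 9.34% in stage order. At 24 hpf it was level with the end at 793 within counting error (17.3%, 16.2% to 18.4%, against 16.9%, 15.9% to 18.0%), and with a 24 nt window 793 was ahead, at 19.9% against 17.3%.

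**Figure D2:**
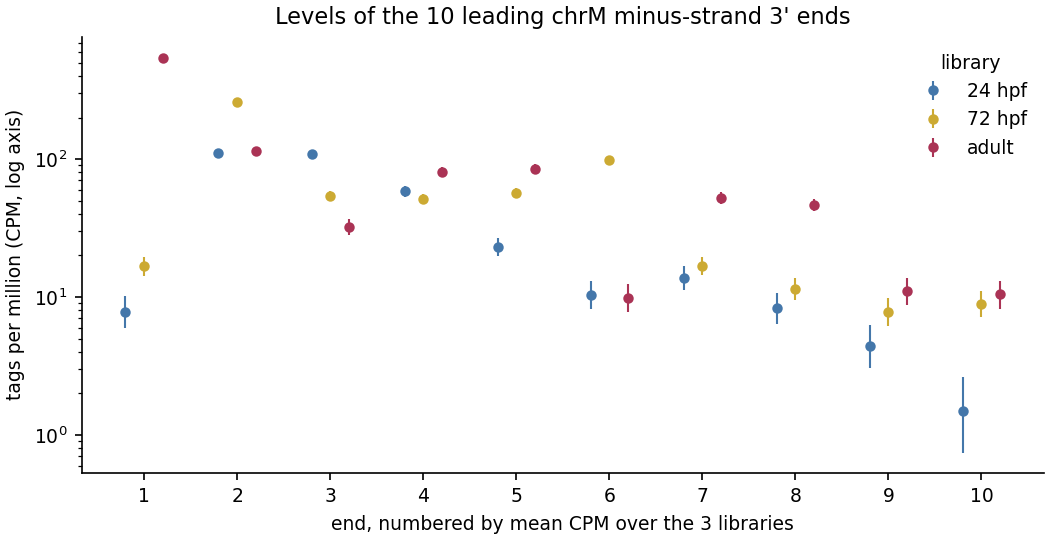
Level (CPM, log axis) of the 10 ends with the highest mean CPM in each library; bars are exact Poisson 95% intervals of the tag count. Ends 1 to 10 lie at 4923, 6425, 793, 290, 317, 617, 653, 6110, 732 and 548; end 1 is highest in the adult (537 CPM), end 2 and end 6 at 72 hpf (258 and 97.8 CPM) and end 3 at 24 hpf (109 CPM).

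Of the 10 leading ends, 7 lay in positions 1 to 1000, and they did not move together. The end at 793 had 806 tags (24 hpf), 533 (72 hpf) and 241 (adult), or 109, 54.3 and 32.3 CPM. The adult was 3.37-fold below 24 hpf (interval 2.91 to 3.90), short of a call. The end at 290 held 434, 505 and 604 tags, or 58.5, 51.5 and 80.9 CPM, and its highest level was 1.57-fold its lowest (1.39 to 1.77). The nearby end at 317 held 172, 561 and 632 tags, or 23.2, 57.2 and 84.6 CPM, with an adult level 3.65-fold that at 24 hpf (3.08 to 4.35). These neighbours lie 27 nt apart, and their order differed between libraries: 290 exceeded 317 at 24 hpf, and 317 exceeded 290 at 72 hpf and in the adult. That contrast depends on the merging window. With 24 nt in place of 10 nt, the end at 290 held 170, 301 and 451 tags and that at 317 held 520, 881 and 933 in stage order, so 317 was the stronger in every library. The adult to 24 hpf ratio was then 2.64 (2.20 to 3.16) at 290 and 1.78 (1.60 to 1.99) at 317, and the adult share of the strand at 317 was 0.926-fold that at 24 hpf, against 1.90-fold with 10 nt.

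The end at 617 stood out at 72 hpf alone. It had 77 tags (24 hpf), 960 (72 hpf) and 74 (adult), or 10.4, 97.8 and 9.91 CPM. The 72 hpf level was 9.43-fold that at 24 hpf (interval 7.47 to 12.1), and the adult level was 9.88-fold below it (7.79 to 12.7). The outer stages differed by less than their counting error (adult to 24 hpf 0.955, 0.685 to 1.33). Counted as distinct intervals, 72 hpf was 2.39-fold 24 hpf (1.35 to 4.49). The adult to 72 hpf ratio was then 0.368 (0.228 to 0.586), and neither was called. The end at 653, only 36 nt upstream in the RNA, had another course, with 102, 165 and 391 tags and an adult level 3.81-fold that at 24 hpf (3.06 to 4.78). Smaller ends of the range were 732, with 33, 77 and 82 tags, and 548, with 11, 88 and 78 tags. Against 24 hpf, the end at 548 was called higher at 72 hpf (6.05-fold, 3.22 to 12.6) and in the adult (7.05-fold, 3.73 to 14.7). With the 24 nt window these ratios were 3.12 and 3.63, and neither was called.

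The leading ends of the minus strand included sharp and spread ones. At 4923, 100% of the 24 hpf and 72 hpf tags and 96.2% of the adult tags shared 1 position, and at 6425 the top position held 94.2%, 97.7% and 98.0%. In contrast, the end at 793 spread its tags over 20, 15 and 18 positions, with 21.3%, 31.0% and 41.1% at the top one. The end at 617 used 11, 13 and 13 positions, with 26.0%, 19.6% and 20.3% at the top position of each library, which need not be the same position. A sharp end leaves few distinct intervals, since they can then differ only in length: the end at 6425 had 13, 16 and 19 intervals, and that at 4923 had 4, 4 and 25. Over ends with 20 to 200 tags in a library, the median share at the top position was 42.9%, 45.4% and 35.3% in stage order, for 33, 36 and 23 ends. On the chrM plus strand it was 41.7%, 42.0% and 36.2%, and outside chrM it was 80.8%, 80.0% and 76.6%. By these medians, ends on both strands of chrM were more spread than ends elsewhere in the genome with tags in the same range, in all 3 libraries.

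**Figure D3:**
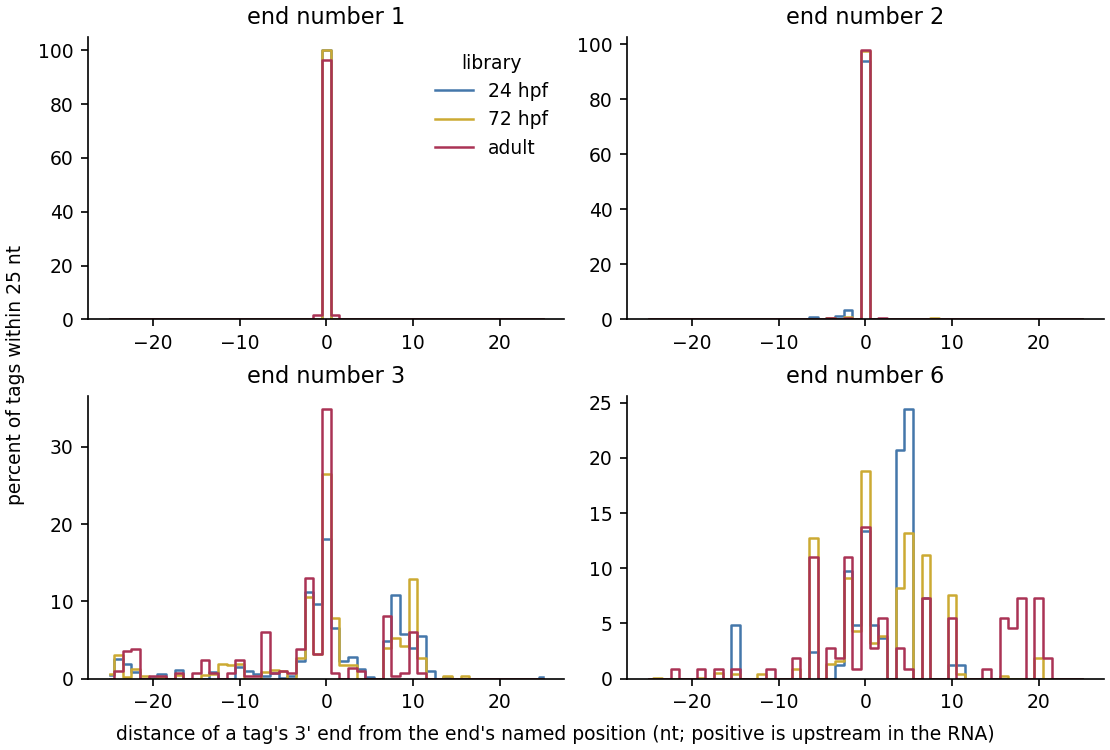
Share of the tags within 25 nt (percent) by distance of their 3′ end from the named position (nt), for the ends at 4923 (number 1), 6425 (number 2), 793 (number 3) and 617 (number 6) in each library; tags of neighbouring ends are included, and the vertical scales differ between panels. The ends at 4923 and 6425 form a single peak, with 96.2% and 98.0% of the adult end's tags at the top position, whereas those at 793 and 617 spread over up to 20 positions.

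The ends at 4923 and 6425 both lay beside a strong end of the opposite strand. There were 19 plus-strand ends with at least 1000 tags over the libraries, a cutoff set after the data were seen, and positions within 10 nt of them made up 2.40% of the molecule as far as tags reach. Of the 297 minus-strand ends, 10 (3.37%) lay in those windows, and they held 19.9%, 35.1% and 54.7% of the strand's tags in stage order. The ends at 4923 and 6425 carried nearly all of this: without them the shares were 1.39%, 2.14% and 1.88%. The minus-strand end at 4923 faced a plus-strand end at the same position, and 6425 faced a plus-strand end at 6420. Other ends facing a landmark within 3 nt were 176 (plus-strand 177), 8047 (8048), 15303 (15306) and 16446 (16448).

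At 4923 the adult library was the highest of the 3 on the minus strand and the lowest on the plus strand. The plus-strand end there had 692 tags (24 hpf), 775 (72 hpf) and 184 (adult), and the adult was 3.79-fold below 24 hpf (interval 3.21 to 4.48). Of the tags of both ends, the minus strand made up 7.73% (5.92% to 9.88%), 17.5% (15.1% to 20.1%) and 95.6% (94.9% to 96.2%) in stage order. A low adult level on the plus strand was not particular to 4923. The adult was also the lowest library at the landmarks 950, 2004, 4780, 6037, 9733, 12679, 12822, 15306 and 16448. It was 4.15-fold below 24 hpf at 950 and 4.29-fold at 12822. At 177, 1713, 8048, 8119, 8820, 10518 and 10938 the adult was above 24 hpf. At 6425 and 6420 the proportion of the strands moved little, with the minus strand at 26.9% (25.3% to 28.5%), 30.0% (29.0% to 31.0%) and 26.6% (25.1% to 28.2%). At 8047 the minus strand was a trace beside the plus strand, at 0.116%, 0.182% and 0.264%. At 15303 it had 1, 15 and 42 tags beside 2893, 2826 and 937 on the plus strand.

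The adult was set against 24 hpf to ask which ends differed most between the earliest and the latest stage. The ends higher in the adult were led by 4923, and 4 more lay close together between the plus-strand landmarks at 6037 and 6420. A call needed a CPM ratio of 4-fold or more with a 95% interval beyond 2-fold, and 20 tags or more over the pair. Of 65 members tested, 14 (21.5%) were higher in the adult and 13 (20.0%) lower. Over all 26068 ends tested in the genome, 23.5% were higher and 20.2% lower, so the shares called were close to those of the genome. The median log2 ratio was -0.23 for the members and -0.05 for all ends tested. Scaling decided the split: median-ratio scaling over the genome gave 17 higher and 7 lower, and scaling to the strand's own tags gave 5 higher and 23 lower. When intervals were built from estimated molecules (tags divided by the mean per lone interval), 6 of the 14 and 7 of the 13 remained called. That mean is taken over the whole library, so it does not measure the PCR copies at a given end.

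Between the landmarks at 6037 and 6420, 12 members summed to 101 tags (24 hpf), 173 (72 hpf) and 528 (adult), or 13.6, 17.6 and 70.7 CPM. The adult level was 5.20-fold that at 24 hpf (interval 4.19 to 6.49) and 4.01-fold that at 72 hpf (3.37 to 4.79). The stretch was chosen after the data were seen, and the 4 ends called higher in it held most of its adult tags. Its sum thus largely restates those calls. The strongest was the end at 6110, with 62, 113 and 347 tags, or 8.35, 11.5 and 46.4 CPM. Its adult level was 5.56-fold that of 24 hpf (4.23 to 7.41). The end at 6352 had 7, 17 and 66 tags and was 9.37-fold higher (4.30 to 24.2). The end at 6311 had 2, 4 and 34 tags, a ratio of 16.9 (4.33 to 145), and that at 6177 had 8, 7 and 39, a ratio of 4.84 (2.23 to 12.0). In each of these 4 ends the adult count also exceeded that at 72 hpf. Its excess over 24 hpf was set by the call, and choosing ends by high adult counts also favours an excess over 72 hpf. The calls at 6110 and 6352 held with intervals from molecules, and those at 6311 and 6177 did not for this pair. With scaling to the strand's own tags, those at 6311 and 6352 held and those at 6110 and 6177 did not. With the 24 nt window the ratio at 6311 was 2.51 (1.40 to 4.70) and no longer a call. The ratios at 6110, 6177 and 6352 were then above 5. By distinct intervals the end at 6177 had 4, 2 and 8, which per interval of the library gave a ratio of 0.910 (0.244 to 4.13). Counted that way, the ratio was 1.41 at 6110 (0.674 to 3.23) and 7.28 at 6311 (1.13 to 305), and neither was called. All members of the stretch together had 25, 35 and 107 distinct intervals, of library totals of 235580, 319885 and 517701 intervals.

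The other ends higher in the adult held fewer tags than that at 6110. The end at 15303 had a ratio of 41.7 over 24 hpf for the tags given above (interval 7.09 to 1687). The end at 637 held 1, 25 and 30 tags, a ratio of 29.8 (4.96 to 1216), but lay between 617 and 653. With the 24 nt window the end at 653, 16 nt away, covered its position and had a ratio of 4.15 (3.34 to 5.20). The end at 8047 held 15, 62 and 78 tags and was 5.17-fold higher (2.95 to 9.67). Its call held neither with scaling to the strand's own tags nor with intervals from molecules, while that at 15303 held with both. By distinct intervals, however, the ratio at 15303 was 3.185 (0.409 to 143.6) and not a call. The call at 637 held with scaling to the strand's own tags but not with intervals from molecules. Of the 14 ends, 6 lay in positions 1 to 1000, which held 23 of the 65 ends tested.

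Of the 13 ends called lower in the adult, 9 lay beyond the plus-strand landmark at 10938, a range with 16 of the 65 ends tested. That boundary was chosen after the data were seen. The end at 12128 had 80 tags (24 hpf), 13 (72 hpf) and 6 (adult), and the adult was 13.4-fold below 24 hpf (interval 5.90 to 37.6). The end at 12099, with 79, 53 and 10 tags, was 7.95-fold lower (4.10 to 17.2). The end at 16317 had 54, 16 and 5 tags and was 10.9-fold lower (4.38 to 34.8), and that at 13050 had 60, 15 and 9 and was 6.71-fold lower (3.31 to 15.4). All 9 ends of this range had a higher level at 24 hpf than at 72 hpf. The excess over the adult was set by the calls, and choosing ends by high 24 hpf counts also favours an excess over 72 hpf. At 14996 the embryo levels were close, with the adult 0.0903-fold 24 hpf and 0.0973-fold 72 hpf. The lowest level was in the adult, except at 11967 (21, 1 and 3 tags) and 13382 (22, 2 and 2 tags), which were lowest at 72 hpf. With the 24 nt window the adult was 5.32-fold below 24 hpf at 12128, 12.1-fold at 12099, 5.54-fold at 16317 and 7.60-fold at 13050, all still called, and 1.85-fold below it at 11967, which was not. The calls at 11994, 12099, 12128, 13050 and 16317 held under median-ratio scaling and with intervals from molecules. Those at 11967, 13362, 13382 and 14996 held under neither. Over the stretch from 10938 to 12679, 27 members summed to 293, 199 and 53 tags, with the adult 5.56-fold below 24 hpf (4.14 to 7.60). All 4 ends tested in that stretch were among those called lower, so its sum largely restates these calls. The end at 804 had the largest fold, 32.7 (8.70 to 276), with 65, 21 and 2 tags, but stands 11 nt from 793 and merged with it under the 24 nt window, where the ratio was 0.298 (0.260 to 0.341). The end at 10784 rested on 31 tags of 1 interval in the 24 hpf library, beside 0 tags at 72 hpf and 2 tags in the adult.

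**Figure D4:**
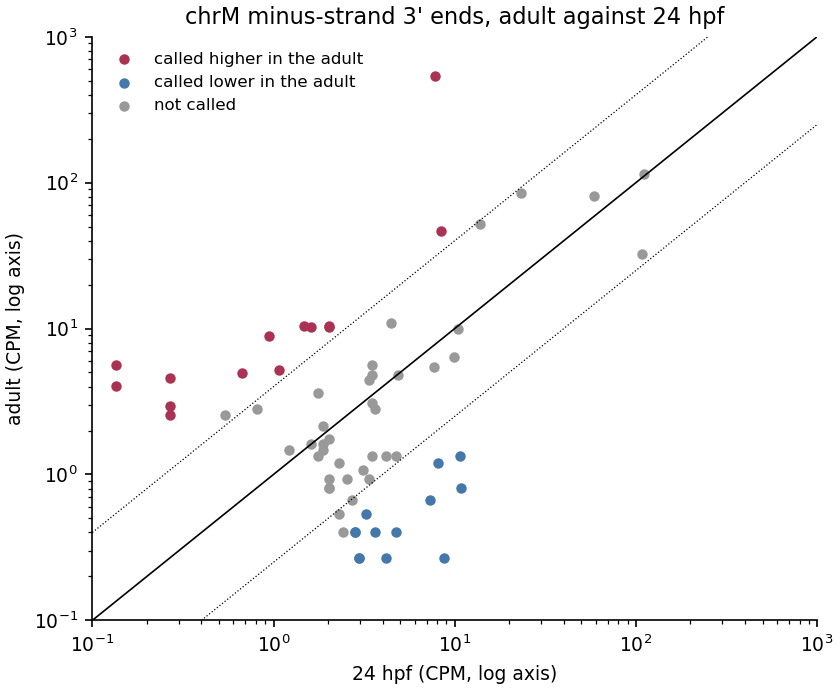
Level in the adult library (vertical, CPM) against the 24 hpf library (horizontal, CPM) of the 65 minus-strand chrM ends tested for this pair, both on log axes; the solid line marks equal levels and the dotted lines a 4-fold difference. The 14 ends called higher include 4923 at the top, and the 13 called lower lie under 2 CPM in the adult.

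The 254 ends outside the first 1000 positions, leaving out 4923 and 6425, summed to 233, 194 and 191 CPM in stage order. The adult sum was 1.22-fold below that of 24 hpf (interval 1.14 to 1.31) and 1.02-fold below that of 72 hpf (0.95 to 1.09). This sum combined groups with opposite differences. For the 243 ends under 5 CPM in every library, the adult was 0.702-fold 72 hpf (0.643 to 0.766) and 0.597-fold 24 hpf (0.546 to 0.653). For the 11 ends of 5 CPM or more in a library, it was 1.97-fold (1.74 to 2.23) and 1.53-fold (1.35 to 1.74). The groups were split by the same levels that the ratios compare. All 254 ends together held 36.3%, 23.3% and 15.5% of the strand's tags in stage order. Of the 40 tested in the adult against 24 hpf, 7 were called higher and 12 lower, beside the 23.5% and 20.2% of the genome.

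The adult was then set against 72 hpf, the nearer stage. Among the members 5 ends were called higher, 4923 and the 4 between the landmarks at 6037 and 6420, and the end at 617 led those called lower by tag number. The 5 higher ends were also called higher against 24 hpf, and both comparisons share the same adult counts. Of 67 members tested, 5 (7.46%) were higher and 7 (10.4%) lower in the adult. Over the 30075 ends tested in the genome, 19.1% were higher and 27.9% lower. The median log2 ratio was -0.30 for the members and -0.66 for all ends tested. For the 5 higher ends the ratios were 32.1 at 4923, 11.2 at 6311 (interval 3.98 to 43.3), 7.32 at 6177 (3.24 to 19.4), 5.10 at 6352 (2.96 to 9.27) and 4.03 at 6110 (3.25 to 5.03). All but the call at 6177 held with intervals from molecules. By distinct intervals the ratio at 6110 was 1.37 (0.707 to 2.78), not a call. With the 24 nt window the ratios at 6110 (3.86) and 6177 (3.68) were no longer called, and that at 6311 was 7.06. Of the 7 lower ends, only 617 held with intervals from molecules, and only 617 held under median-ratio scaling. Median-ratio scaling adds 0.73 to the log2 ratios of this pair. It gave 11 ends higher and 1 lower. With scaling to the strand's own tags 3 were higher and 14 lower. The ends at 3562 and 5234 had 1 adult tag each against 21 at 72 hpf, and 14996 had 2 against 27. With the 24 nt window, 5234 was covered by an end at 5215 with an adult ratio of 0.973 (0.517 to 1.80), and the adult was 9.13-fold below 72 hpf at 3562 and 6.85-fold at 14996.

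Between the embryo libraries, the end at 617 had the most tags among those called. Of 75 members tested, 8 (10.7%) were higher and 9 (12.0%) lower at 72 hpf than at 24 hpf, against 20.1% and 7.99% of all 27819 ends tested. The median log2 ratio was -0.02 for the members and 0.38 for all ends tested. The largest called ratios rested on 1 tag at 24 hpf: the ends at 637, 4415 and 6458 each had 25 tags at 72 hpf and 1 at 24 hpf, a ratio of 18.9 (interval 3.10 to 776). Under the 24 nt window none of these 3 was called. The largest fold lower was 46.3 (7.78 to 1879) at 8436, with 1 tag at 72 hpf against 35 at 24 hpf and 10 in the adult. Next came 11967, with 1 tag against 21, and 13382, with 2 against 22. The end at 12128 was 8.13-fold lower at 72 hpf (4.50 to 15.9). With the 24 nt window these folds were 29.1 at 8436, 14.5 at 11967, 6.48 at the end at 13362 that covered 13382, and 16.3 at 12128, all still called. With intervals from molecules, 1 of the 8 higher ends (617) and 3 of the 9 lower ends (8436, 10784 and 12128) held. The 24 hpf tags at 10784 came from 1 interval, which that estimate does not take into account.

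Stretches of the minus strand differed in how many ends they held. The 4 members between the plus-strand landmarks at 950 and 1713 summed to 8, 15 and 10 tags, and the longest run without a member, 359 nt, went from 804 to 1163. Between 2004 and 3731, 18 members summed to 88, 106 and 14 tags, with the adult 6.33-fold below 24 hpf (interval 3.58 to 12.0). Between 6420 and 8048, 48 members held 1076, 2925 and 1162 tags, most of them at 6425. The stretches were described after the data were seen, and which genes they hold was not read from the files.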

How the data were processed

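The deposited values are whole numbers in the name field of each interval, read here as tag counts; no label or header names the field, and they look unnormalised. The authors used Bowtie and the Zv9 (danRer7) build, per the submitters' processing notes and the file headers. The sources used here give neither a Bowtie version nor a rule for multiple matches, so tags that also match nuclear copies of mitochondrial sequence cannot be told apart. The display offset of 1 in the file headers was added to each position.

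Ends were clustered (most tags first, window 10 nt), scaled to CPM and compared by ratio with conditional Clopper-Pearson 95% intervals over all clusters of the genome. A library with 0 tags was set to 3 tags, and the fold is then a bound; 3 tags are 0.404, 0.306 and 0.402 CPM in stage order. For the members' strand, 3′ ends fell at 537, 603 and 985 positions and the other interval ends at 618, 712 and 1192, in stage order. The clusters numbered 509 before the tag minimum, and the 297 kept held 98.3% of the strand's tags. Named are the 10 ends of highest mean CPM, the 3 largest called folds per direction and pair, and the ends beside the threshold; other ends were named after their values were seen. The members, lists and rules were chosen with earlier results of these data known. The steps were tested on simulated data with well-separated sites and counts without PCR copies. That test does not cover the merging of close ends or the effect of copies. Python 3.11.15, pandas 2.3.3, numpy 2.4.6 and scipy 1.17.1 were used. The 13 chromatin, input and RNA-Seq samples were not analysed here. Without a gene annotation of danRer7, tissue markers were not checked.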

Additional observations from a re-analysis of the deposited data

How the results depend on the processing

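Each stage has 1 library, so none was left out. No paired analysis was possible because the labels give no replicate numbers to pair. Depth limits most ends, since 201 of the 297 have under 20 tags. Distances to annotated genes were not computed without an annotation of danRer7.

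Counts are given as higher and lower ends for 72 hpf against 24 hpf, adult against 72 hpf and adult against 24 hpf, in that order. The 8-fold rule left 1 and 4, 1 and 1, and 5 and 3. The 2-fold rule gave 21 and 18, 14 and 20, and 20 and 23. A minimum of 100 tags over the pair left 13, 15 and 10 ends tested, with 1 and 0, 2 and 1, and 2 and 0 called. A 24 nt window gave 4 and 5, 3 and 5, and 9 and 12. Intervals from molecules gave 1 and 3, 4 and 1, and 6 and 7. Median-ratio scaling moved the log2 ratios by -0.24, 0.73 and 0.49 and gave 8 and 10, 11 and 1, and 17 and 7. Scaling to the strand's own tags gave 8 and 13, 3 and 14, and 5 and 23. So whether more ends were higher or lower in the adult depended on the scaling.

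The strand's share of all tags (0.0641%, 0.0834% and 0.123% in stage order) was 0.328%, 0.282% and 0.306% by distinct intervals and 0.0661%, 0.0871% and 0.127% of the tags outside chrM. Without the end at 4923, which was tried after seeing the data, it was 0.0633%, 0.0817% and 0.0697%. At least 10 tags detected 82, 91 and 50 ends, whereas 2 distinct intervals detected 107, 144 and 165. The share of the ends at 4923 and 6425 (18.5%, 33.0% and 52.9%) was 2.20%, 2.21% and 2.78% by distinct intervals, which differ only in length at a sharp end. Tags within 3 nt of a strong plus-strand end made up 2.31%, 3.77% and 45.2%, and within 25 nt 21.2%, 35.9% and 55.5%. Of 33 called ratios of named ends, 27 held with median-ratio scaling, 29 with scaling to the strand, 21 with the 24 nt window and 2 by distinct intervals. By distinct intervals 2 reversed: 6177 for the adult against 24 hpf (0.910), and 10784 for 72 hpf against 24 hpf (2.21), where a floor of 3 stands against 1 interval.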
